A study of Mus musculus with 12 samples.

Results

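Hepatocyte-defining transcription factors are DNA-binding proteins that set up and maintain the gene program of liver parenchymal cells. The set was chosen by name and holds Hnf4a, Cebpa, Cebpb, Foxa1, Foxa2, Foxa3, Onecut1, Nr5a2 and Prox1, which are 9 of the 47069 genes in the table. Expression is given as FPKM, read fragments scaled by transcript length and by the mapped reads of the library. All 9 members were among the 17386 genes with a mean of at least 0.1 FPKM over the libraries, and these genes were tested. RNA was sequenced from isolated hepatocytes and from whole liver of mice at postnatal day 14, in 12 libraries with 3 for each genotype and compartment. Cdk1 Liv-/- mice carried Cdk1 flox/flox together with Albumin-Cre, which removes the floxed part of the gene of the mitotic kinase CDK1. This happens where the Albumin promoter is active, in hepatocytes and in other cells of the Albumin-expressing lineage of the liver. Controls were labelled WT, and the labels do not say whether they carried the floxed allele or Cre. A library is named here by compartment, genotype and replicate number. The study's methods call the replicates of its experiments biological in general, without naming these libraries, and the labels do not say that the libraries come from separate animals. The p-values thus measure the spread between these samples, which may be in part technical.

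The members act together in the liver. HNF4A is a nuclear receptor that binds genes of lipid, bile acid and clotting factor production, the FOXA proteins open chromatin for other factors, and HNF6, the product of Onecut1, binds the genes of several other members. C/EBP-alpha supports metabolic genes and a resting state of hepatocytes, whereas C/EBP-beta takes part in the acute phase response and in regeneration. LRH-1, the product of Nr5a2, drives genes of bile acid synthesis, and PROX1 is a partner of HNF4A and LRH-1 that is also a master factor of lymphatic endothelium. The comparisons below ask where these genes differed between genotypes when the kinase gene of division was targeted in hepatocytes.

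The targeted gene, Cdk1, had values of 27.9, 20.4 and 28.2 FPKM in WT and 9.68, 11.8 and 6.87 in Cdk1 Liv-/- hepatocytes, which did not overlap (log2 fold change -1.40, SE 0.22, adjusted p = 0.0148 in limma). In whole liver the values were 25.3, 22.7 and 21.5 FPKM in WT and 11.7, 12.1 and 14.2 in Cdk1 Liv-/-, again without overlap (log2 fold change -0.85, SE 0.10, adjusted p = 0.00353). The FPKM of Cdk1 covers all its exons and only part of the gene is floxed, so the remaining signal is not a measure of intact gene copies. 2 libraries stood apart, 1 in sex-linked RNA and 1 in markers of other cell types. Whole liver Cdk1 Liv-/- 3 had Xist at 158 FPKM and 0 FPKM for Ddx3y, Eif2s3y, Kdm5d and Uty, whereas the other libraries had Xist at 0.14 FPKM or less, so this library carries female RNA among libraries with Y-linked RNA. The study's methods say that its experiments used male mice only, which this library does not match. Hepatocyte WT 3 had the highest sums of myeloid, endothelial, stellate and erythroid markers among the hepatocyte libraries. Counts of members and lists between genotypes are given with and without these 2 libraries where they differ. Whole liver Cdk1 Liv-/- 2 differed from its group as well. The hepatocyte marker Cyp2e1 was at 363 FPKM in it, beside 2068 and 1617.5 in whole liver Cdk1 Liv-/- 1 and 3. The myeloid marker Cd68 was at 42.5 FPKM, beside 21.3 and 20.3. List counts without this library were not taken. In whole liver the median log2 difference of all genes tested was 0.18, and it was 0.011 after division by median-ratio size factors, a rescaling to the median gene. With that rescaling the share of genes passing the test that were higher in Cdk1 Liv-/- went from 83.5 to 52.1% in whole liver, from 64.7 to 54.8% in hepatocytes, and from 23.9 to 52.8% for the interaction of genotype and compartment. Member values and list counts in whole liver are therefore also given on that scale, relative to the median gene, where the call or direction depends on it.

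Markers of the cell types in each sample were summed beside the members. Of all genes tested, 12.1% passed as higher and 6.61% as lower in hepatocytes, and 38.0% and 7.53% in whole liver. The 8 hepatocyte markers, of which Alb was the most abundant, summed to 81870, 90280 and 84950 FPKM in WT hepatocytes, 57240, 58350 and 54540 in Cdk1 Liv-/- hepatocytes, 84390, 82910 and 85140 in WT whole liver and 65400, 57600 and 63550 in Cdk1 Liv-/- whole liver. The sum was lower in every Cdk1 Liv-/- library than in every WT library of the same compartment. In the test, 1 higher and 2 lower of 8 passed in hepatocytes and 0 higher and 4 lower in whole liver (Apoa1 and Ttr lower in both, Cps1 higher in hepatocytes, and Cps1 and Serpina1c lower in whole liver), and without hepatocyte WT 3 the higher call was lost (0 higher and 2 lower). In whole liver the calls of Ttr and Apoa1 were lost without a filter on low values (adjusted p = 0.191 and 0.417) and with a replicate block (0.119 and 0.108). That of Ttr was also lost without any of whole liver WT 1, whole liver WT 2 or whole liver WT 3 (adjusted p = 0.175, 0.157 and 0.107). The 7 cholangiocyte markers, with Spp1 most abundant, summed to 29.2, 24.0 and 38.8 FPKM in WT hepatocytes, 73.7, 132 and 109 in Cdk1 Liv-/- hepatocytes, 70.8, 75.2 and 57.3 in WT whole liver and 283, 151 and 272 in Cdk1 Liv-/- whole liver. All Cdk1 Liv-/- sums lay above the WT sums of the same compartment, and 4 of the 6 tested genes (Krt7, Epcam, Sox9 and Spp1) were higher in each compartment (3 without hepatocyte WT 3 and 2 without whole liver Cdk1 Liv-/- 3). Relative to the median gene 2 higher and 1 lower passed in whole liver. Cftr was below the filter. Bile duct cells are known to express Onecut1 and Foxa genes as well, and their part was not tested.

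Among non-parenchymal cells, the 10 myeloid markers, with Clec4f most abundant, summed to 153, 88.0 and 285 FPKM in WT hepatocytes, 109, 72.9 and 80.2 in Cdk1 Liv-/- hepatocytes, 243, 236 and 279 in WT whole liver and 334, 638 and 476 in Cdk1 Liv-/- whole liver. In hepatocytes 0 higher and 1 lower passed (0 without hepatocyte WT 3) and in whole liver 6 higher and 0 lower (Lyz2, Ptprc, Itgam, Ly6c2, S100a8 and S100a9, with 5 higher without whole liver Cdk1 Liv-/- 3 and 5 relative to the median gene). The 6 endothelial markers, with Clec4g most abundant, summed to 95.4, 63.4 and 171 FPKM in WT hepatocytes, 44.1, 29.2 and 31.5 in Cdk1 Liv-/- hepatocytes, 81.4, 97.5 and 117 in WT whole liver and 103, 125 and 101 in Cdk1 Liv-/- whole liver. All 6 were lower in Cdk1 Liv-/- hepatocytes (5 without hepatocyte WT 3), and in whole liver 1 higher and 0 lower passed, which was lost without whole liver Cdk1 Liv-/- 3 and relative to the median gene. The 3 lymphatic markers, with Flt4 most abundant, summed to 6.91, 5.19 and 14.7 FPKM in WT hepatocytes, 3.52, 2.07 and 2.26 in Cdk1 Liv-/- hepatocytes, 7.25, 11.3 and 17.1 in WT whole liver and 11.8, 15.5 and 8.34 in Cdk1 Liv-/- whole liver. Of these, 0 higher and 1 lower passed in hepatocytes and 1 higher and 0 lower in whole liver, where the call was lost relative to the median gene. Lymphatic endothelium is known to express Prox1. The 5 stellate cell markers, with Dcn most abundant, summed to 82.4, 38.8 and 152 FPKM in WT hepatocytes, 49.1, 39.7 and 40.8 in Cdk1 Liv-/- hepatocytes, 153, 157 and 175 in WT whole liver and 304, 346 and 298 in Cdk1 Liv-/- whole liver. In hepatocytes none passed (0 in limma, 1 at an unadjusted p below 0.05), and in whole liver 4 higher and 0 lower. The 5 erythroid markers, with Hbb-bt most abundant, summed to 30.4, 24.0 and 74.4 FPKM in WT hepatocytes, 8.56, 16.1 and 5.87 in Cdk1 Liv-/- hepatocytes, 142, 146 and 264 in WT whole liver and 83.7, 117 and 103 in Cdk1 Liv-/- whole liver. Here 0 higher and 1 lower passed in hepatocytes (0 without hepatocyte WT 3) and 0 higher and 2 lower in whole liver (1 lower without whole liver Cdk1 Liv-/- 3). Of the 4 pancreas markers, Cpa1 and Prss2 were under 0.1 FPKM in every library, Ins2 was below the filter, Cela1 was the most abundant, and the sum was 4.11, 4.0 and 3.88 FPKM in WT hepatocytes, 6.14, 3.68 and 3.33 in Cdk1 Liv-/- hepatocytes, 4.13, 4.96 and 3.59 in WT whole liver and 5.35, 6.23 and 6.23 in Cdk1 Liv-/- whole liver, with Cela1 higher in whole liver (lost without whole liver Cdk1 Liv-/- 3 and relative to the median gene). Cdk1 Liv-/- hepatocyte libraries thus held less RNA of endothelial markers and Cdk1 Liv-/- whole liver more of myeloid and stellate markers, and the part of these cells in the results below was not tested. Fewer cells of a type and less RNA in each cannot be told apart in bulk RNA.

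**Figure D1:**
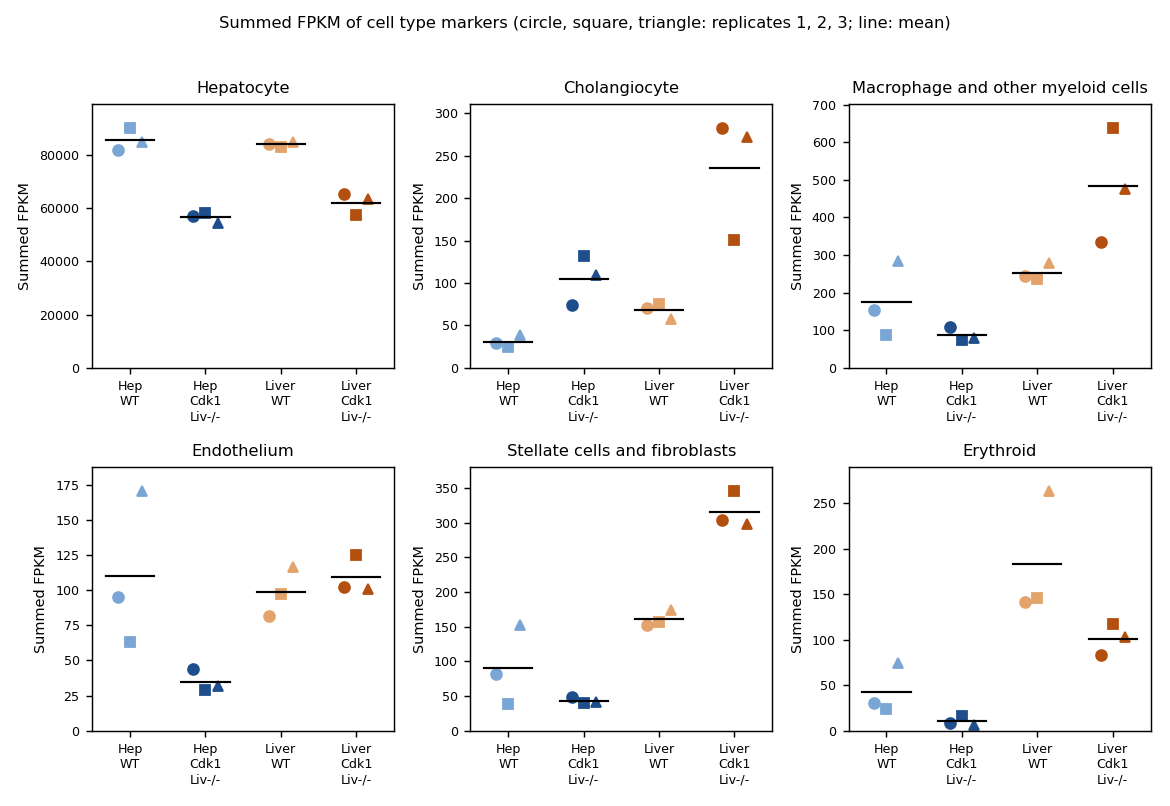
Summed FPKM of 6 of the marker lists in every library, by compartment and genotype, with the mean of each group.

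The order of the members was led by Hnf4a in all 4 groups. Its mean was 104.5 ± 5.28 FPKM (± SD) in WT hepatocytes and 93.9 ± 4.83 in WT whole liver, followed by Cebpa with 73.6 ± 3.99 and 88.3 ± 8.39. In WT hepatocytes Hnf4a, Cebpa and Cebpb did not overlap, whereas neighbours overlapped all along the series Cebpb, Foxa3, Prox1, Foxa2 and Nr5a2, and Foxa1 and then Onecut1 lay below without overlap. In WT whole liver Hnf4a overlapped Cebpa, Foxa3 overlapped Cebpb and Cebpb overlapped Foxa2, and the lower members were separated in the order Prox1, Nr5a2, Foxa1 and Onecut1. The order in Cdk1 Liv-/- hepatocytes differed at the low end, where Onecut1 passed Foxa1 in its mean with overlapping values. In Cdk1 Liv-/- whole liver Cebpb stood above Foxa3 with overlapping values. A value of 1 FPKM on 1 kb of transcript stood for 35.1 to 49.3 reads, estimated from the spacing of the values, so that the lowest value, Onecut1 at 0.26 FPKM, rested on 13 to 43 reads depending on the transcript.

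**Figure D2:**
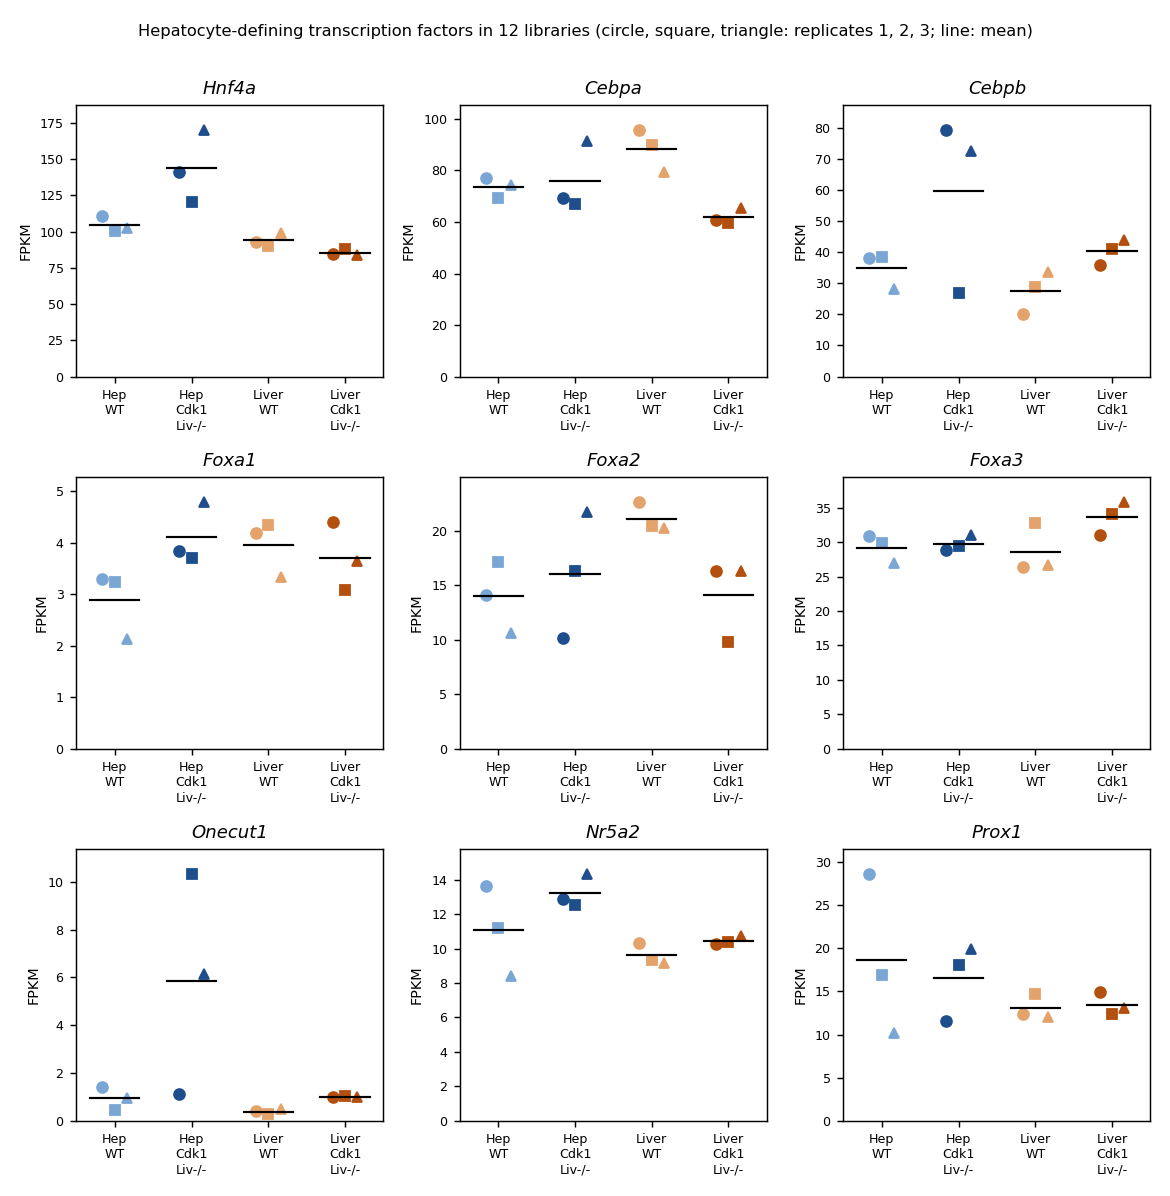
FPKM of the 9 members in each of the 12 libraries, 1 panel for each gene with its own linear scale, with the mean of each group.

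Between genotypes, 1 of the 9 members, Hnf4a, passed the test in isolated hepatocytes (adjusted p of at most 0.1 in limma), and it was higher in Cdk1 Liv-/-. Of all genes tested 18.7% passed in this comparison, 12.1% higher and 6.61% lower, so the share of the members was no larger than that of all genes. The members' median log2 fold change was 0.27 beside 0.049 for all genes, and 2 members had an unadjusted p below 0.05. Without hepatocyte WT 3 these medians were 0.094 and 0.058, and 1 member had such a p. In whole liver 4 of 9 passed, Cebpb and Onecut1 higher and Cebpa and Foxa2 lower, where 45.6% of all genes passed, 38.0% higher and 7.53% lower. The share that passed was again near that of all genes, and the members' median of 0.047 was below the 0.18 of all genes. In hepatocytes 3257 genes passed, 2108 higher and 1149 lower, and without hepatocyte WT 1, the library that mattered most, 1559 passed. The counts without hepatocyte Cdk1 Liv-/- 3 or hepatocyte WT 3 were 2053 and 2260. In whole liver 7920 genes passed, 6610 higher and 1310 lower, and 6471 without whole liver Cdk1 Liv-/- 3. The members' count in hepatocytes was 0 without hepatocyte WT 1, hepatocyte WT 2, hepatocyte WT 3 or hepatocyte Cdk1 Liv-/- 3, 2 without hepatocyte Cdk1 Liv-/- 2, and 0 with median-ratio size factors, and it ranged from 0 to 3 over the alternatives. In whole liver it was 3 without whole liver Cdk1 Liv-/- 3 and ranged from 0 to 7, and with median-ratio size factors it was 1 higher and 3 lower. No member passed in either compartment when an absolute log2 fold change of at least 1 was also asked for, and the losses named for single genes below are those by adjusted p alone. Values of the genotypes did not overlap for 34.0% of all genes tested in hepatocytes and for 52.1% in whole liver, so a lack of overlap alone was common.

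**Figure D3:**
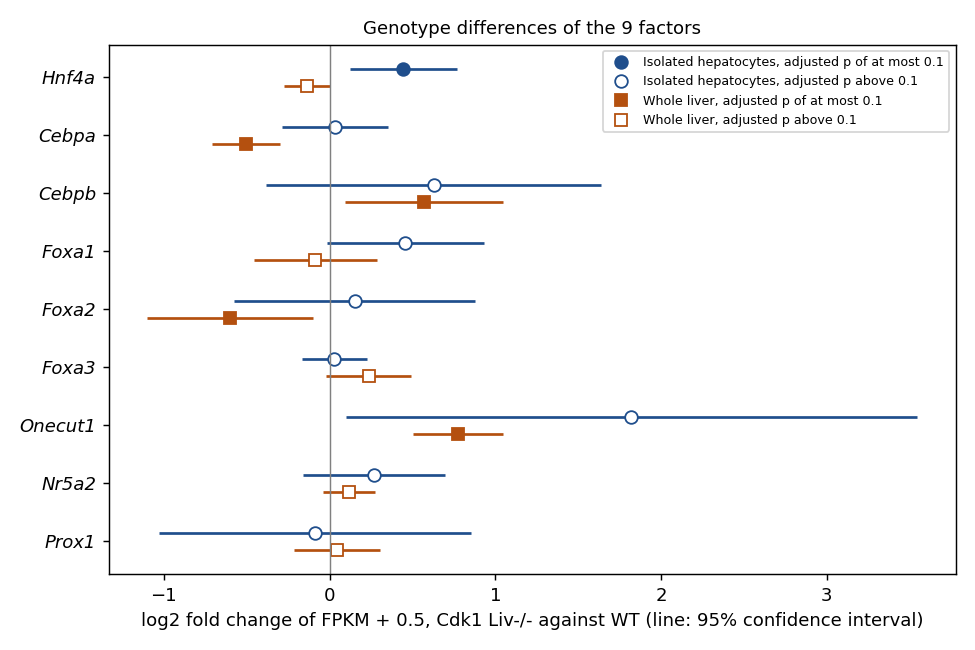
Log2 fold change of each member between Cdk1 Liv-/- and WT in isolated hepatocytes and in whole liver, with 95% intervals.

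Motifs were searched in the promoters of the members, 300 bases from 250 before to 50 after an annotated RefSeq start (GRCm38.p6), on both strands. The 8 motifs and the share of all 32851 promoters with a match were the HNF1 half-site GTTAAT (7.10%), FOXA TGTTTNC (20.5%), C/EBP TTGCNNAA (10.8%), ATTGANT of the ONECUT factors (8.32%), HNF4 CAAAGTCCA (0.475%), LRH-1 TCAAGGTCA (0.423%), the CRE half-site TGACG (20.8%) and the TATA box TATAAA (13.6%). The 9 members had 14 such promoters, of which 6 held a TATA box, 3 each an HNF1 half-site, a FOXA, an ONECUT or a CRE match, 1 a C/EBP match, and none an HNF4 or LRH-1 match. A missing match says only that these letters are not in this window, and a match is a description, not a site or a cause. Promoters of the 5 members that passed the test in either compartment are shown with the member, read 5′ to 3′ on the strand of the gene, with the letters of the matches in capitals, and a match on the opposite strand is marked where it lies on the printed strand. No 2 matches overlapped.

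Hnf4a had values of 111, 101 and 102 FPKM in WT and 141, 120.3 and 170.3 in Cdk1 Liv-/- hepatocytes. Every Cdk1 Liv-/- value lay above every WT value, and Hnf4a rose in Cdk1 Liv-/- (log2 fold change 0.45, SE 0.13, adjusted p = 0.0875), 1.36-fold. The adjusted p lay near the threshold and ranged from 0.0132 to 0.193 over the alternatives. The call was lost without a filter on low values (adjusted p = 0.173), with median-ratio size factors (0.37, adjusted p = 0.153), with a replicate block (0.142), and without any of hepatocyte WT 1, hepatocyte WT 2, hepatocyte WT 3, hepatocyte Cdk1 Liv-/- 1 or hepatocyte Cdk1 Liv-/- 3 (adjusted p = 0.164, 0.193, 0.185, 0.168 and 0.149). In whole liver Hnf4a was at 92.6, 89.8 and 99.2 FPKM in WT and 84.3, 88.0 and 83.5 in Cdk1 Liv-/-, without overlap but in the other direction, and did not pass (log2 fold change -0.14, SE 0.056, adjusted p = 0.108). Relative to the median gene it passed there as lower (-0.36, adjusted p = 0.0146), as it did in the two-sample test with q-values (0.0411) and without whole liver Cdk1 Liv-/- 2 (0.0995), with a range from 0.0146 to 0.377. The interaction of genotype and compartment passed for Hnf4a (log2 fold change 0.58, SE 0.15, adjusted p = 0.0681), so its genotype difference was higher in hepatocytes than in whole liver. That call was lost without any of hepatocyte WT 3, whole liver WT 1, whole liver WT 2, whole liver WT 3, whole liver Cdk1 Liv-/- 2 or whole liver Cdk1 Liv-/- 3 (adjusted p = 0.113, 0.159, 0.114, 0.126, 0.117 and 0.114) and without both libraries that stood apart (0.177), with adjusted p from 0.0247 to 0.177.

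Hnf4a has 2 annotated RefSeq starts, each 300 bases of which follow, shown because Hnf4a passed in hepatocytes. The upstream window (chr2:163506607-163506906, plus strand, GRCm38.p6) holds a FOXA match at -238 and an ONECUT match on the opposite strand at -60 from the start. The downstream window (chr2:163546905-163547204, plus strand) holds 2 HNF1 half-sites on the opposite strand at -81 and -74. These are motifs of other factors of the network, and use of either start was not measured.
Hnf4a upstream start: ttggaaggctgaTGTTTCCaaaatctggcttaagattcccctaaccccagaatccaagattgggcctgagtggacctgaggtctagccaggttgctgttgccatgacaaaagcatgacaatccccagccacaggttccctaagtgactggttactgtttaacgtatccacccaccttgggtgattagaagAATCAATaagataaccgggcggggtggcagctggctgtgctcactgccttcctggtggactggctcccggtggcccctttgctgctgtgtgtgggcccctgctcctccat
Hnf4a downstream start: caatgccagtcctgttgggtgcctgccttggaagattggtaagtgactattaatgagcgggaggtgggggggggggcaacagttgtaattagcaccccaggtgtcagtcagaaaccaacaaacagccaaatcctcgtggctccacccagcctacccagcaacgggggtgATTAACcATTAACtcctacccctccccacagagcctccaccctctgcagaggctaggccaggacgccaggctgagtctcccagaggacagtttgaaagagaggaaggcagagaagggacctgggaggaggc
The antisense gene Hnf4aos overlaps Hnf4a. It lay at 0.34, 0.23 and 0.67 FPKM in WT and 0.17, 0.27 and 0.48 in Cdk1 Liv-/- hepatocytes and at 0.47, 0.48 and 0.09 FPKM in WT and 0.35, 0.22 and 0.50 in Cdk1 Liv-/- whole liver, far below Hnf4a in every library. Its differences did not pass in hepatocytes (-0.17, adjusted p = 0.661) or whole liver (0.042, adjusted p = 0.907). Leaving out 1 library gave -0.32 to 0.025 and -0.20 to 0.17. The strand setting of the counting is not given in the sources used here, so reads of the shared stretch cannot be assigned to 1 of the genes.

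Cebpa, the second most abundant member, had values of 77.1, 69.3 and 74.5 FPKM in WT and 69.5, 67.1 and 91.5 in Cdk1 Liv-/- hepatocytes, which overlapped and did not differ by the test (log2 fold change 0.034, SE 0.13, adjusted p = 0.893). In whole liver the values were 95.8, 89.7 and 79.3 FPKM in WT and 60.9, 59.5 and 65.3 in Cdk1 Liv-/-, without overlap. There Cebpa fell in Cdk1 Liv-/- (log2 fold change -0.51, SE 0.083, adjusted p = 0.00896), and its adjusted p ranged from 0.00408 to 0.0439 over the alternatives, though the call was lost with an added absolute log2 fold change of at least 1. The difference was -0.73 relative to the median gene and -0.55 without whole liver Cdk1 Liv-/- 3. The interaction passed (log2 fold change 0.54, SE 0.16, adjusted p = 0.0905), so its genotype difference too was higher in hepatocytes than in whole liver. This call was lost without a filter on low values (adjusted p = 0.135), at the same sum in every library (0.104), with a replicate block (0.128) and without any of hepatocyte WT 1, hepatocyte WT 2, hepatocyte WT 3, hepatocyte Cdk1 Liv-/- 3, whole liver WT 1, whole liver WT 2, whole liver WT 3, whole liver Cdk1 Liv-/- 1, whole liver Cdk1 Liv-/- 2 or whole liver Cdk1 Liv-/- 3 (adjusted p = 0.119, 0.117, 0.142, 0.111, 0.204, 0.165, 0.11, 0.13, 0.177 and 0.12). Without both libraries that stood apart the adjusted p was 0.174, and the range was 0.0661 to 0.204. Myeloid and stellate markers were higher in Cdk1 Liv-/- whole liver, and their part in the fall of Cebpa was not tested. The promoter of Cebpa (chr7:35119043-35119342, plus strand, GRCm38.p6), shown because Cebpa passed in whole liver, holds a TATA box at -30 and none of the other 7 motifs.
Cebpa: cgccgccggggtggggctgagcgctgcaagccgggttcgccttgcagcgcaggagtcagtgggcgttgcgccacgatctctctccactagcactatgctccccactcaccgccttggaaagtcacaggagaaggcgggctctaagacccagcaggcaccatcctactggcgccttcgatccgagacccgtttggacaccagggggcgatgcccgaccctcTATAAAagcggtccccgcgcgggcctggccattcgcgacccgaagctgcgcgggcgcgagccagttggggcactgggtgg

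Cebpb, the member tied to the acute phase, had values of 38.2, 38.4 and 28.1 FPKM in WT and 79.4, 26.8 and 72.5 in Cdk1 Liv-/- hepatocytes. Hepatocyte Cdk1 Liv-/- 2 lay below all WT values and the other Cdk1 Liv-/- libraries lay above them, and the difference did not pass (log2 fold change 0.63, SE 0.42, adjusted p = 0.37). Without hepatocyte Cdk1 Liv-/- 2 it passed (1.12, adjusted p = 0.0258, adjusted p from 0.0258 to 0.64 over the alternatives), so the hepatocyte result turned on 1 library. Without hepatocyte Cdk1 Liv-/- 1 or 3 the value was 0.35 and 0.42. In whole liver Cebpb was at 20.2, 28.7 and 33.6 FPKM in WT and 35.8, 41.1 and 44.0 in Cdk1 Liv-/-, without overlap, and rose in Cdk1 Liv-/- (log2 fold change 0.57, SE 0.19, adjusted p = 0.0685). The call was lost without a filter on low values (adjusted p = 0.143), relative to the median gene (0.35, adjusted p = 0.237), in 1 fit of all 12 libraries (0.254) and without any of whole liver WT 2, whole liver Cdk1 Liv-/- 2 or whole liver Cdk1 Liv-/- 3 (adjusted p = 0.124, 0.146 and 0.17), with a range from 0.0413 to 0.254. Without whole liver WT 1 the log2 fold change was 0.37. The promoter of Cebpb (chr2:167688665-167688964, plus strand, GRCm38.p6), shown because Cebpb passed in whole liver, holds CRE half-sites at -180 on the opposite strand and at -53 and -7 on the printed strand, and a TATA match at 22, after the start.
Cebpb: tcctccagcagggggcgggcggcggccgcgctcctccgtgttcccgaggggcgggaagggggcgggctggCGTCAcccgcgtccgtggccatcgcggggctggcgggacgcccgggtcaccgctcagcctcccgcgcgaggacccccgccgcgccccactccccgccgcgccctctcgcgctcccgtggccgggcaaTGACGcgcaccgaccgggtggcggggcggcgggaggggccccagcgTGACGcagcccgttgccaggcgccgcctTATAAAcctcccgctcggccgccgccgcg

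The ratio of Cebpb to Cebpa within each library sets the acute phase factor against the metabolic factor, and was taken from FPKM + 0.5. It was 0.499, 0.558 and 0.381 in WT hepatocytes and 1.14, 0.404 and 0.793 in Cdk1 Liv-/- hepatocytes, which overlapped. In whole liver it was 0.214, 0.324 and 0.427 in WT and 0.592, 0.694 and 0.676 in Cdk1 Liv-/-, without overlap. The mean log2 difference was 0.60 in hepatocytes (exact permutation p = 0.3) and 1.08 in whole liver (exact permutation p = 0.1, the smallest that 20 assignments allow). Over both compartments, with genotypes exchanged only within a compartment, it was 0.84 (exact permutation p = 0.015 of 400 assignments, smallest possible 0.005). So the mean over the 2 compartments lay toward Cebpb in Cdk1 Liv-/-, with separate values in whole liver only. The joint test takes the libraries of the 2 compartments as independent, and the labels do not say whether they share animals. Myeloid markers were higher in Cdk1 Liv-/- whole liver, and their part in the ratio was not tested. Leaving out 1 library gave 0.67 to 1.04 over both compartments, 0.26 to 1.01 in hepatocytes, where hepatocyte Cdk1 Liv-/- 2 pulled the value down, and 0.81 to 1.31 in whole liver. With the replicate numbers as blocks the exact permutation p over both compartments was 0.0625.

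**Figure D4:**
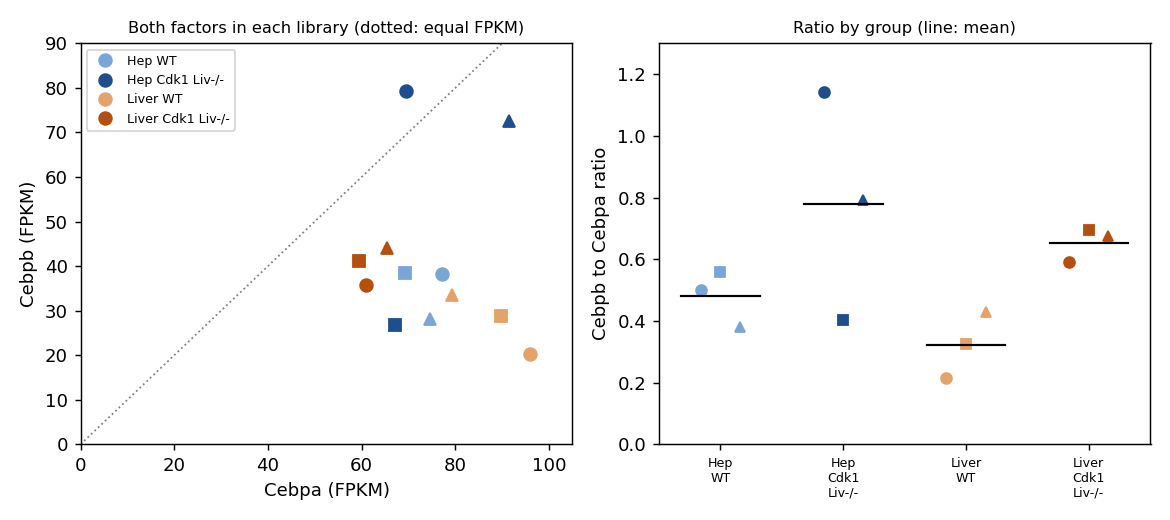
FPKM of Cebpb against Cebpa in every library, and the ratio of Cebpb to Cebpa (FPKM + 0.5) by group with its mean.

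Of 10 other C/EBP and related bZIP factors, 4 higher and 0 lower passed in hepatocytes (median log2 fold change 0.26 beside 0.049 for all genes). In whole liver 4 higher and 1 lower passed, with a median of 0.27 beside 0.18, and relative to the median gene the list split 2 higher and 3 lower, with 2 higher and 0 lower in hepatocytes. Of all genes tested 12.1% passed as higher and 6.61% as lower in hepatocytes, and 38.0% and 7.53% in whole liver. The share of the list that passed in whole liver was thus near that of all genes. The list counts were 3 higher and 0 lower without hepatocyte WT 3 and 3 higher and 1 lower without whole liver Cdk1 Liv-/- 3. The largest rises in hepatocytes were those of Cebpe (1.83, adjusted p = 0.00136), a myeloid C/EBP, and Ddit3 (1.37, adjusted p = 0.00884), which encodes the stress factor CHOP. At the other end were Hlf (-0.18, adjusted p = 0.656) and Atf5 (-0.080, adjusted p = 0.855), which did not pass. The value of Hlf was -0.010 without hepatocyte WT 1, -0.34 without hepatocyte WT 3, -0.0093 without hepatocyte Cdk1 Liv-/- 1 and -0.36 without hepatocyte Cdk1 Liv-/- 3, and that of Atf5 was -0.14 without hepatocyte WT 1, -0.031 without hepatocyte WT 3, -0.33 without hepatocyte Cdk1 Liv-/- 1, 0.14 without hepatocyte Cdk1 Liv-/- 2 and -0.047 without hepatocyte Cdk1 Liv-/- 3. In whole liver Cebpd (1.14, adjusted p = 0.058) and Cebpe (0.98, adjusted p = 0.0115) rose most, Tef fell (-0.48, adjusted p = 0.0257, lost in 1 fit of all 12 libraries at 0.137) and Hlf did not pass (-0.24, adjusted p = 0.159, and  and -0.15 without whole liver Cdk1 Liv-/- 2). Hlf passed as lower relative to the median gene (-0.45, adjusted p = 0.0442), in the two-sample test with q-values (0.0845) and without whole liver Cdk1 Liv-/- 1 (0.0809, range 0.0442 to 0.39). With a pseudocount of 0.1 the values of Cebpe were 2.88 in hepatocytes and 1.51 in whole liver. The call of Cebpd was lost without a filter on low values (adjusted p = 0.128), relative to the median gene (0.93, adjusted p = 0.121) and without any of whole liver WT 1, whole liver WT 2, whole liver Cdk1 Liv-/- 2 or whole liver Cdk1 Liv-/- 3 (adjusted p = 0.135, 0.132, 0.137 and 0.151), with a range from 0.0209 to 0.151. The other factors that passed were Nfil3 and Atf4 as higher in hepatocytes, and Ddit3 and Atf4 as higher in whole liver. Ddit3 in whole liver (0.74, adjusted p = 0.0659) was lost without a filter on low values (adjusted p = 0.14), relative to the median gene (0.52, adjusted p = 0.165) and without any of whole liver WT 1, whole liver WT 2 or whole liver WT 3 (adjusted p = 0.15, 0.153 and 0.143), with a range from 0.0104 to 0.165, and its value was 0.44 without whole liver Cdk1 Liv-/- 2.

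Acute phase genes that C/EBP-beta is known to drive had the largest median of the lists. Like the other lists, this one was chosen with earlier results of these data known, so its median is a description. The part of C/EBP-beta in it was not tested. Of 8, 7 passed as higher in Cdk1 Liv-/- hepatocytes and 7 in whole liver, and none as lower. Of all genes tested 12.1% passed as higher in hepatocytes and 38.0% in whole liver. The medians of the list were 5.93 and 4.19, beside 0.049 and 0.18 for all genes. Neither library that stood apart altered the list counts. Crp also passed in whole liver, as lower, relative to the median gene (-0.40, adjusted p = 0.0425), with a replicate block (0.0955), in the two-sample test with q-values (0.0758) and without whole liver WT 2 (0.0698, range 0.0425 to 0.453). Orm1 had the largest difference in hepatocytes (8.63, adjusted p = 0.000409) and in whole liver (6.98, adjusted p = 0.000167). It was followed by Orm2 (7.35 and 6.26, adjusted p = 0.000409 and 0.000228). These genes encode orosomucoids, secreted acute phase proteins. The smallest were Crp, which did not pass in hepatocytes (-0.13, adjusted p = 0.726, and -0.25 without hepatocyte Cdk1 Liv-/- 1, 0.12 without hepatocyte Cdk1 Liv-/- 2 and -0.25 without hepatocyte Cdk1 Liv-/- 3) or whole liver (-0.18, adjusted p = 0.148), Hpx in hepatocytes (1.09, adjusted p = 0.0213, lost without a filter at 0.112) and Hp in whole liver (1.04, adjusted p = 0.00122).

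The FOXA genes Foxa1, Foxa2 and Foxa3 encode related pioneer factors. Foxa2 had values of 14.2, 17.1 and 10.6 FPKM in WT and 10.1, 16.3 and 21.7 in Cdk1 Liv-/- hepatocytes, which overlapped and did not pass (log2 fold change 0.15, SE 0.30, adjusted p = 0.777), with 0.31 without hepatocyte WT 2, -0.023 without hepatocyte WT 3, 0.44 without hepatocyte Cdk1 Liv-/- 1 and -0.092 without hepatocyte Cdk1 Liv-/- 3. Whole liver values were 22.7, 20.4 and 20.3 FPKM in WT and 16.3, 9.77 and 16.3 in Cdk1 Liv-/-, without overlap, and Foxa2 fell in Cdk1 Liv-/- (log2 fold change -0.60, SE 0.20, adjusted p = 0.0679), with -0.81 relative to the median gene. The call was lost without a filter on low values (adjusted p = 0.142), in 1 fit of all 12 libraries (0.131) and without any of whole liver WT 1, whole liver WT 2 or whole liver WT 3 (adjusted p = 0.181, 0.138 and 0.133), with a range from 0.0213 to 0.181. Whole liver Cdk1 Liv-/- 2 held the lowest value, and without it the log2 fold change was -0.36. The interaction did not pass (log2 fold change 0.75, SE 0.39, adjusted p = 0.267), so the compartments are not shown to differ. Foxa2 has 3 annotated RefSeq starts, and the promoters of the 2 with matches are shown because Foxa2 passed in whole liver. The window at the annotated gene start (chr2:148046920-148047219, minus strand, GRCm38.p6) holds an ONECUT match at -213 and a CRE half-site at 2. The downstream window (chr2:148045415-148045714, minus strand) holds an HNF1 half-site on the opposite strand at -176, an ONECUT match at -157 and a TATA match on the opposite strand at -208. The window between them (chr2:148045899-148046198, minus strand) holds none of the 8 motifs, and use of the starts was not measured.
Foxa2 gene start: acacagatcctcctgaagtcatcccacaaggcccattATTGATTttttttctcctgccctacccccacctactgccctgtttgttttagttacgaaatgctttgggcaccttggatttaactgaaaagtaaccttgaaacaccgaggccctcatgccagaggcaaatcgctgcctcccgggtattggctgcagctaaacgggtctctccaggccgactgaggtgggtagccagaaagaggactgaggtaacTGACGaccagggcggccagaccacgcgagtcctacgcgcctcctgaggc
Foxa2 downstream start: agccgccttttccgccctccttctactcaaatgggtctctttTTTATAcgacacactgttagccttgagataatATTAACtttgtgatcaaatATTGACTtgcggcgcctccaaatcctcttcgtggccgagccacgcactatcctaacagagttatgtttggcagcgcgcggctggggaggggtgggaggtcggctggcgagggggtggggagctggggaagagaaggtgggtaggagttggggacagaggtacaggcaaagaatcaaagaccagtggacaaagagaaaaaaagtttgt

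Foxa3 had values of 30.9, 29.8 and 27.0 FPKM in WT and 28.9, 29.4 and 31.04 in Cdk1 Liv-/- hepatocytes, with overlap (log2 fold change 0.028, SE 0.081, adjusted p = 0.851). In whole liver it was at 26.4, 32.8 and 26.7 FPKM in WT and 31.04, 34.1 and 35.9 in Cdk1 Liv-/-, with overlap, and did not pass (log2 fold change 0.24, SE 0.10, adjusted p = 0.128). It passed there as higher at the same sum in every library (0.0808), in the two-sample test with q-values (0.0743), in 1 fit of all 12 libraries (0.0947) and without whole liver WT 2 (0.33, adjusted p = 0.0463), with adjusted p from 0.0463 to 0.904. Relative to the median gene its difference was 0.017, so it was close to that of the median gene. Foxa1, the least abundant FOXA gene, was at 3.29, 3.23 and 2.14 FPKM in WT and 3.84, 3.70 and 4.80 in Cdk1 Liv-/- hepatocytes. These did not overlap and did not pass (log2 fold change 0.46, SE 0.20, adjusted p = 0.186), except in 1 fit of all 12 libraries (adjusted p = 0.0872, range 0.0872 to 0.39), and the value was 0.29 without hepatocyte WT 3. In whole liver Foxa1 was at 4.20, 4.35 and 3.33 FPKM in WT and 4.41, 3.08 and 3.65 in Cdk1 Liv-/-, with overlap (log2 fold change -0.086, SE 0.15, adjusted p = 0.684). Of the summed FOXA signal, Foxa3 made up 49.6 to 72.6%, Foxa2 20.8 to 42.6% and Foxa1 5.39 to 8.96% over the 12 libraries, so Foxa3 was the main FOXA transcript in each. The noncoding gene 9030622O22Rik lies next to Foxa2 on the same strand without overlap. It was at 10.4, 5.80 and 5.42 FPKM in WT and 5.05, 5.18 and 6.59 in Cdk1 Liv-/- hepatocytes and 2.86, 4.36 and 4.35 FPKM in WT and 3.58, 2.09 and 3.21 in Cdk1 Liv-/- whole liver, and neither difference passed (-0.29, adjusted p = 0.5, and -0.34, adjusted p = 0.29). The hepatocyte value was -0.0091 without hepatocyte WT 1 and -0.45 without hepatocyte WT 3, and that of whole liver was -0.52 without whole liver WT 1 and -0.14 without whole liver Cdk1 Liv-/- 2.

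**Figure D5:**
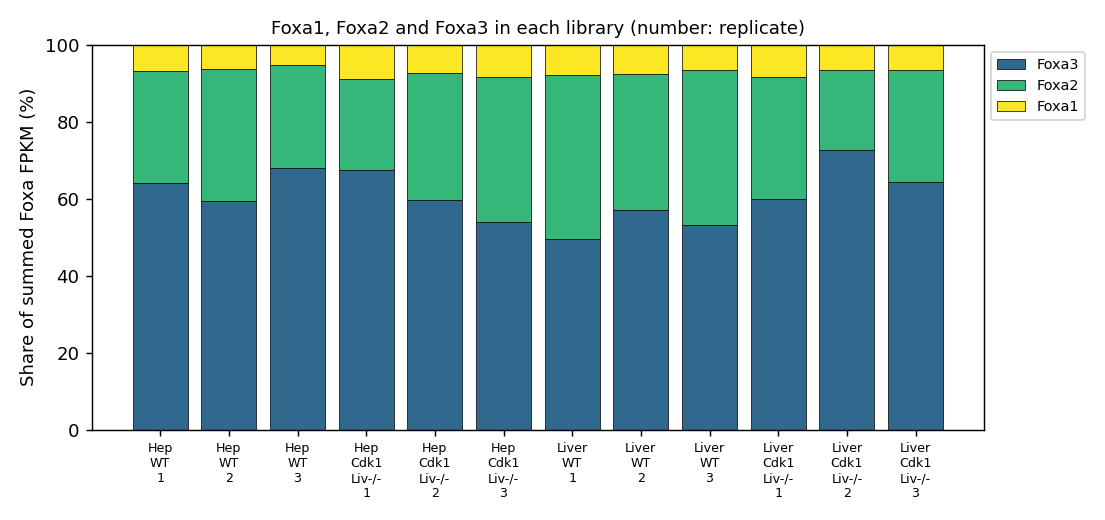
Share of Foxa1, Foxa2 and Foxa3 in the summed FOXA FPKM of each library.

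Onecut1 had the widest range of the members on a log2 scale. In hepatocytes it was at 1.43, 0.45 and 0.93 FPKM in WT and 1.11, 10.3 and 6.13 in Cdk1 Liv-/-, where hepatocyte Cdk1 Liv-/- 1 lay within the WT values and the other Cdk1 Liv-/- libraries above them, and the difference did not pass (log2 fold change 1.82, SE 0.71, adjusted p = 0.157). Without hepatocyte Cdk1 Liv-/- 1 it was 2.62, adjusted p = 0.0282, and in 1 fit of all 12 libraries the adjusted p was 0.0343, within a range from 0.0282 to 0.333. In whole liver Onecut1 was at 0.40, 0.26 and 0.48 FPKM in WT and 0.98, 1.04 and 0.98 in Cdk1 Liv-/-, without overlap. The SD was 3.46% of the mean in Cdk1 Liv-/- and 29.3% in WT. Counting noise at such low values was not estimated, so the small SD may be a chance agreement of few libraries. The SE that follows rests in part on it. Onecut1 rose in Cdk1 Liv-/- whole liver (log2 fold change 0.78, SE 0.11, adjusted p = 0.00615). There the call was lost in 1 fit of all 12 libraries (0.321, range 0.00528 to 0.321) and with an added absolute log2 fold change of at least 1, and the value was 0.63 relative to the median gene and 1.22 with a pseudocount of 0.1. The interaction did not pass (log2 fold change 1.04, SE 0.77, adjusted p = 0.453), except without hepatocyte Cdk1 Liv-/- 1 (1.84, adjusted p = 0.0631, range 0.0631 to 0.703), and was 0.47 without hepatocyte Cdk1 Liv-/- 2. The promoter of Onecut1 (chr9:74861671-74861970, plus strand, GRCm38.p6), shown because Onecut1 passed in whole liver, holds a CRE half-site on the opposite strand at -139 and none of the other 7 motifs. It is rich in G and C (73.0% beside a median of 52.7% in all promoters), as are those of Cebpb (80.7%) and Cebpa (67.3%).
Onecut1: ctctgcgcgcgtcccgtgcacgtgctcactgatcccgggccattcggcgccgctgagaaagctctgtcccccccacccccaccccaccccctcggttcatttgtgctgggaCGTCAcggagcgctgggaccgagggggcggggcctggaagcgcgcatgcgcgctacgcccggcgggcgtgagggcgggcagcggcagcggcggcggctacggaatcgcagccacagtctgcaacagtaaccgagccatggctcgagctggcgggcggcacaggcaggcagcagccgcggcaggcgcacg

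Nr5a2 had values of 13.6, 11.2 and 8.43 FPKM in WT and 12.9, 12.5 and 14.4 in Cdk1 Liv-/- hepatocytes, which overlapped (log2 fold change 0.27, SE 0.18, adjusted p = 0.365), with 0.43 without hepatocyte WT 1 and 0.094 without hepatocyte WT 3. Its values in whole liver were 10.3, 9.36 and 9.17 FPKM in WT and 10.3, 10.4 and 10.7 in Cdk1 Liv-/-, with overlap (log2 fold change 0.12, SE 0.063, adjusted p = 0.2), and passed only in the two-sample test with q-values (0.0641, range 0.0641 to 0.572). Relative to the median gene its direction turned (-0.094). All 12 values of Nr5a2 lay between 8.43 and 14.4 FPKM. Prox1 had values of 28.7, 17.0 and 10.2 FPKM in WT and 11.5, 18.1 and 19.9 in Cdk1 Liv-/- hepatocytes, a wide spread with overlap (log2 fold change -0.086, SE 0.39, adjusted p = 0.909), and its difference was 0.28 without hepatocyte WT 1, -0.44 without hepatocyte WT 3, 0.15 without hepatocyte Cdk1 Liv-/- 1, -0.17 without hepatocyte Cdk1 Liv-/- 2 and -0.24 without hepatocyte Cdk1 Liv-/- 3. Whole liver had 12.4, 14.7 and 12.1 FPKM in WT and 14.9, 12.3 and 13.1 in Cdk1 Liv-/-, with overlap (log2 fold change 0.047, SE 0.11, adjusted p = 0.756), and relative to the median gene its direction turned (-0.17). Its antisense neighbour Prox1os overlaps the start of Prox1 on chromosome 1. Prox1os was at 8.06, 8.47 and 7.24 FPKM in WT and 4.04, 2.96 and 4.21 in Cdk1 Liv-/- hepatocytes, without overlap, and fell in Cdk1 Liv-/- (log2 fold change -1.0, SE 0.16, adjusted p = 0.0142), with adjusted p from 0.000411 to 0.0774 over the alternatives. Prox1os in whole liver was at 6.43, 7.37 and 8.29 FPKM in WT and 6.55, 6.24 and 6.38 in Cdk1 Liv-/-, with overlap (log2 fold change -0.18, SE 0.10, adjusted p = 0.189, and  and -0.10 without whole liver WT 3), passing as lower relative to the median gene (-0.39, adjusted p = 0.0422), in the two-sample test with q-values (0.0874) and without whole liver WT 1 (0.0834), with a range from 0.0422 to 0.406. The interaction passed (log2 fold change -0.82, SE 0.18, adjusted p = 0.0529), and was lost relative to the median gene (0.103) and without any of whole liver WT 1, whole liver WT 2 or whole liver Cdk1 Liv-/- 2 (adjusted p = 0.14, 0.106 and 0.101) and without both libraries that stood apart (0.106), with a range from 0.042 to 0.14. Reads in the stretch shared with Prox1 cannot be assigned to 1 of the genes without the strand setting. Prox1 is read in lymphatic endothelium too, of whose markers 1 of 3 passed as lower in Cdk1 Liv-/- hepatocytes (1 without hepatocyte WT 3). Of these markers, Pdpn lay at 0.05 FPKM or less and Ccl21a at 0.09 or less in every hepatocyte library. The part of these cells was not tested.

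Of 20 other liver-enriched factors, 19 were tested (Onecut3 was below the filter). In hepatocytes 3 higher and 0 lower passed, with a median of 0.16 beside 0.049 for all genes, and in whole liver 6 higher and 3 lower, with a median of 0.060 beside 0.18. Of all genes tested 18.7% passed in hepatocytes and 45.6% in whole liver, so the shares of this list were near those of all genes. Relative to the median gene the whole liver split turned to 2 higher and 6 lower, with 2 higher and 1 lower in hepatocytes, so the direction of this list rests on the scaling. Without hepatocyte WT 3 the hepatocyte counts were 2 higher and 0 lower, and without whole liver Cdk1 Liv-/- 3 the whole liver counts were 6 higher and 2 lower. Gata6 (0.93, adjusted p = 0.0227) and Zhx2 (0.69, adjusted p = 0.0357), a repressor of fetal liver genes, rose most in hepatocytes, where Nr1h4, the bile acid receptor gene, was the other that passed. The call of Zhx2 was lost with a replicate block (adjusted p = 0.137) and without hepatocyte WT 1 (0.115) or hepatocyte Cdk1 Liv-/- 1, just above the threshold (0.1), with a range from 0.00175 to 0.137. Gata4 (-0.76, adjusted p = 0.133) and Ppara (-0.67, adjusted p = 0.563) had the lowest values there and did not pass, except Gata4 relative to the median gene (0.0901), in 1 fit of all 12 libraries (0.0249) and without hepatocyte WT 2 (0.082, range 0.0249 to 0.296). The value of Ppara was -0.32 without hepatocyte WT 1, 0.093 without hepatocyte Cdk1 Liv-/- 1 and -1.19 without hepatocyte Cdk1 Liv-/- 3. In whole liver Gata6 (0.60, adjusted p = 0.0058) and Onecut2 (0.59, adjusted p = 0.00694), the paralog of Onecut1, rose most. Ppara (-1.34, adjusted p = 0.0113, lost in 1 fit of all 12 libraries at 0.101) and Klf15 (-0.53, adjusted p = 0.0366), both factors of fasting metabolism, fell most.

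Liver genes named in textbooks as bound or driven by these factors numbered 25, of which 24 were tested because the symbol Tf was not matched. Of all genes tested 12.1% passed as higher and 6.61% as lower in hepatocytes, and 38.0% and 7.53% in whole liver. Of the targets 4 higher and 4 lower passed in hepatocytes, with a median of -0.31 beside 0.049 for all genes, and in whole liver 0 higher and 12 lower, with a median of -0.51 beside 0.18. Relative to the median gene the counts were 3 higher and 4 lower in hepatocytes and 0 higher and 13 lower in whole liver, and at the same sum in every library 4 higher and 5 lower, and 1 higher and 11 lower. Without hepatocyte WT 3 the hepatocyte counts were 1 higher and 4 lower, with a median of -0.19, and without whole liver Cdk1 Liv-/- 3 those of whole liver 0 higher and 11 lower. So the targets split in hepatocytes and lay on the lower side in whole liver. Cyp7a1 (1.16, adjusted p = 0.0435), the entry enzyme of bile acid synthesis, and Apoc3 (0.99, adjusted p = 0.0166) rose most in hepatocytes. Apoa1 (-1.12, adjusted p = 0.0293) and Ttr (-0.99, adjusted p = 0.0374), which encode secreted carriers, fell most. Cps1 and Cyp27a1 were the other genes that passed as higher in hepatocytes, and Apoh and F7 as lower. The calls of Cyp7a1, Apoa1 and Ttr were lost without a filter on low values (adjusted p = 0.116 for Cyp7a1, 0.17 for Apoa1 and 0.135 for Ttr) and with a replicate block (0.122, 0.127 and 0.101). Cyp7a1 was also lost without any of hepatocyte WT 2, hepatocyte WT 3 or hepatocyte Cdk1 Liv-/- 3 (adjusted p = 0.102, 0.109 and 0.123) and Ttr without any of hepatocyte WT 1 or hepatocyte WT 2 (adjusted p = 0.105 and 0.101). In whole liver the sterol transporter genes Abcg5 (-1.41, adjusted p = 0.00657) and Abcg8 (-1.40, adjusted p = 0.00529) fell most. Cyp7a1 passed there as lower, opposite to hepatocytes (-0.67, adjusted p = 0.0592). That call was lost without a filter on low values (adjusted p = 0.128). It was also lost without any of whole liver WT 2, whole liver WT 3, whole liver Cdk1 Liv-/- 1 or whole liver Cdk1 Liv-/- 2 (adjusted p = 0.154, 0.151, 0.135 and 0.129). Igfbp1 (0.45, adjusted p = 0.573) and Scarb1 (0.27, adjusted p = 0.126) were at the upper end and did not pass, except Scarb1 at the same sum in every library (0.0853), in the two-sample test with q-values (0.0754) and without whole liver Cdk1 Liv-/- 2 (0.0259, range 0.0259 to 0.787). The value of Igfbp1 was 0.016, 0.93, 0.77 and 0.017 without whole liver WT 1, WT 3, Cdk1 Liv-/- 1 and Cdk1 Liv-/- 2.

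Between compartments in WT, isolated hepatocytes minus whole liver, 0 of 9 members passed in limma, where 1.52% of all genes did. An unadjusted p below 0.05 was found for 3 members, and every other tool and setting with all libraries also gave 0. Foxa2 (log2 fold change -0.60, SE 0.17, adjusted p = 0.17), Cebpa (-0.26, adjusted p = 0.201), Foxa1 (-0.41, adjusted p = 0.295) and Hnf4a (0.15, adjusted p = 0.257) had values that did not overlap between the compartments, as did 26.0% of all genes tested. The value of Foxa1 was -0.24 without hepatocyte WT 3. With median-ratio size factors the 4 values were -0.48 for Foxa2, -0.13 for Cebpa, -0.30 for Foxa1 and 0.28 for Hnf4a. The members' median was 0.15 beside -0.10 for all genes. Of all genes 265 passed, 18 higher and 247 lower in hepatocytes, and without hepatocyte WT 3 3069 passed together with 1 member, Foxa2 (-0.43, adjusted p = 0.0758). The count of all genes without hepatocyte WT 1, hepatocyte WT 2, whole liver WT 1, whole liver WT 2 or whole liver WT 3 was 1, 7, 33, 6 and 65. No member was thus shown to differ between the compartments in WT with all libraries. In this comparison 0 of 6 endothelial (median -0.0027), 0 of 10 myeloid (-0.52) and 0 of 5 stellate (-0.97) markers passed. As lower in hepatocytes passed 3 of 6 tested cholangiocyte, 1 of 3 lymphatic and 1 of 5 erythroid markers. WT hepatocyte libraries are thus not shown to hold less endothelial RNA than whole liver, and the comparison is not one of pure hepatocytes.

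The interaction asks whether the genotype difference was larger in hepatocytes than in whole liver. Of the 9 members 2 passed, Hnf4a and Cebpa, both higher, where 9.85% of all genes passed, 2.35% higher and 7.49% lower. The members' median of 0.54 lay above the -0.11 of all genes, and relative to the median gene the values were 0.67 and 0.011. Both members passed through different courses, Hnf4a with opposite signs in the compartments and Cebpa with a fall in whole liver only. Of all genes 1712 passed, and the count rested on single libraries. It was 922 without hepatocyte WT 1, 2639 without hepatocyte WT 2, 918 without hepatocyte WT 3, 1120 without hepatocyte Cdk1 Liv-/- 1, 1528 without hepatocyte Cdk1 Liv-/- 2 and 951 without hepatocyte Cdk1 Liv-/- 3. Leaving out whole liver WT 1, WT 2 or WT 3 gave 78, 393 and 501, and leaving out whole liver Cdk1 Liv-/- 1, Cdk1 Liv-/- 2 or Cdk1 Liv-/- 3 gave 1253, 415 and 742. Members that passed were 1, 1 and 0 without hepatocyte WT 1, 2 or 3, 3, 2 and 1 without hepatocyte Cdk1 Liv-/- 1, 2 or 3, 0, 0 and 0 without whole liver WT 1, 2 or 3, and 1, 0 and 0 without whole liver Cdk1 Liv-/- 1, 2 or 3. Without both libraries that stood apart 452 genes and 0 members passed in limma, with 2 members at an unadjusted p below 0.05. For Cebpb (0.060, adjusted p = 0.961), Foxa1 (0.54, adjusted p = 0.219), Foxa3 (-0.21, adjusted p = 0.385), Nr5a2 (0.15, adjusted p = 0.689) and Prox1 (-0.13, adjusted p = 0.89) the compartments are not shown to differ. Leaving out 1 library gave -0.22 to 0.55 for Cebpb, -0.022 to 0.31 for Nr5a2 and -0.49 to 0.23 for Prox1. Of the lists, 1 higher and 0 lower of the bZIP factors, 1 higher and 2 lower of the liver-enriched factors, 6 higher and 0 lower of the textbook targets and 3 higher and 0 lower of the acute phase genes passed, and without both libraries that stood apart 1, 0, 2 and 1. Myeloid, endothelial and stellate markers passed as lower (5 of 10, 5 of 6 and 2 of 5). These counts were 1, 1 and 0 without both libraries that stood apart and 2, 2 and 0 relative to the median gene, and their part in the members' interaction was not tested.

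Genes with the most similar course over the 12 libraries were sought among 12282 genes with a mean of at least 1 FPKM, by the root mean square difference of log2 values about their means. For Hnf4a, whose own spread was 0.30, they were Gin1 (root mean square difference 0.076), D230025D16Rik and Zhx3. Gin1 shared the high value of hepatocyte Cdk1 Liv-/- 3 with Hnf4a. For Cebpa (own spread 0.22) they were Sephs2 (root mean square difference 0.11), Cyp4f15 and Polg2. For Cebpb (0.54) Slc25a47 was nearest (root mean square difference 0.22) and Tiparp was also near. Slc25a47, a mitochondrial carrier of the liver, had the low value of hepatocyte Cdk1 Liv-/- 2 in common with Cebpb. For Foxa1 (0.26) they were 2010315B03Rik (root mean square difference 0.11), Gm14325 and Mief2, and for Foxa3 (0.13) Prmt10 (root mean square difference 0.067), Tsn and Tma16. For Foxa2 (0.40) Gm12231 was nearest (root mean square difference 0.23) and RP23-325D10.4 was also near. For Onecut1 (1.11) the nearest were Zyg11a (root mean square difference 0.47), Zbtb16 and Gpam. Zbtb16, a zinc finger factor, and Gpam, an enzyme of lipid synthesis, had their highest values in the same libraries as Onecut1, hepatocyte Cdk1 Liv-/- 2 and 3. For Nr5a2 (0.22) they were Reps2 (root mean square difference 0.070), Wipi2 and Atp13a3, and for Prox1 (0.38) Rreb1 (root mean square difference 0.12), Fyco1 and Zfp318. A similar course in these libraries is a description, and shared regulation was not tested.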

How the data were processed

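Single-end reads of 75 bp were, per the submitters' processing notes, aligned with STAR (version not given in the sources used here) and quantified with RSEM 1.2.31 on mouse genome build mm10. The deposited FPKM values, which the authors computed per gene with RSEM, were used as given, to 2 decimals, with column sums from 649066 to 698265. Read counts were not used here. The sources used here name neither the annotation release nor the strand setting. Depth was estimated from the spacing of low FPKM values as 35.1 to 49.3 reads per FPKM and kb. FPKM was taken as log2(FPKM + 0.5), and 17386 genes with a mean of at least 0.1 FPKM over 12 libraries were tested with limma 3.58.1 in R 4.3.3 (moderated variance with a trend, Benjamini-Hochberg adjusted p of at most 0.1). The comparisons were genotype in each compartment, compartment in WT, and the interaction of genotype and compartment. The Cebpb to Cebpa ratio was tested by exact permutation, two-sided. The fitting script was tested on simulated data.

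Alternatives were a pseudocount of 0.1, no filter on low values, a mean of at least 1 FPKM, median-ratio size factors, the same sum in every library, replicate numbers as blocks, a two-sample test with q-values, 1 fit of all 12 libraries, an added absolute log2 fold change of at least 1, and each library left out. Libraries with the same replicate number in different groups correlated from -0.32 to 0.24 in their deviations from group means. Unlike numbers were not compared and the labels give no pairing, so these values cannot settle whether the numbers pair the libraries. The members, gene lists and call rule were chosen with earlier results of these data known. Named genes of each gene list were the 2 largest and 2 smallest log2 fold changes in each genotype comparison, and genes named for small counts were chosen after their values were seen, most of them without alternatives of their own. Of the genes most similar in course to a member, 2 are not given. The lists were other C/EBP and related bZIP factors (10), other liver-enriched factors (20), textbook targets (25), acute phase targets of C/EBP-beta (8), and markers of hepatocytes, cholangiocytes, myeloid cells, endothelium, lymphatic endothelium, stellate cells, erythroid cells and pancreas. Gene coordinates came from the GENCODE vM21 annotation and promoters from RefSeq GRCm38.p6. Python 3.11.15, numpy 2.4.6, pandas 2.3.3, scipy 1.17.1 and matplotlib 3.10.9 were used for tables and figures.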

Additional observations from a re-analysis of the deposited data

Results flagged for a closer look

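The genotype difference differed between the compartments by the interaction in limma for 8 genes of the members, neighbours and named genes. As isolated hepatocytes minus whole liver, the log2 values were 0.58 for Hnf4a (adjusted p = 0.0681) and 0.54 for Cebpa (adjusted p = 0.0905) among the members, and -0.82 for Prox1os (adjusted p = 0.0529), the antisense neighbour of Prox1. Among the lists they were 0.85 for Cebpe (adjusted p = 0.0645), -1.04 for Gata4 (adjusted p = 0.0813), 0.75 for Apoc3 (adjusted p = 0.0805), 1.83 for Cyp7a1 (adjusted p = 0.0415) and 1.65 for Orm1 (adjusted p = 0.0814). Each call was lost in at least 1 alternative. The adjusted p over the alternatives ranged from 0.0247 to 0.177 for Hnf4a (lost in 7 of 19), 0.0661 to 0.204 for Cebpa (lost in 14 of 19), 0.042 to 0.14 for Prox1os (lost in 5 of 19), 0.0473 to 0.164 for Cebpe (lost in 9 of 18), 0.0186 to 0.177 for Gata4 (lost in 14 of 19), 0.0398 to 0.211 for Apoc3 (lost in 12 of 19), 0.0252 to 0.101 for Cyp7a1 (lost in 1 of 19) and 0.0582 to 0.193 for Orm1 (lost in 12 of 19).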

How the results depend on the processing

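The number of genes and members that passed depended on the processing. In hepatocytes the 3257 genes became 5506 in 1 fit of all 12 libraries and 1107 with an absolute log2 fold change of at least 1, and leaving out 1 library gave 1559 to 2498. The 1 member became 0 without a filter on low values, 0 with median-ratio size factors, 3 in 1 fit and 0 with the fold change, and 0 to 2 with 1 library left out. In whole liver 7920 genes became 972 with the fold change, and the 4 members became 2 without a filter, 7 in the two-sample test with q-values, 2 in 1 fit and 0 with the fold change. The 265 genes of the compartment in WT became 89 at a mean of at least 1 FPKM, 78 with median-ratio size factors, 119 at the same sum, 510 in 1 fit and 81 with the fold change, and 1 to 3069 (members 0 to 1) with 1 library left out. The 1712 genes of the interaction became 915 without a filter, 1040 with median-ratio size factors and 688 with the fold change, and 78 to 2639 with libraries left out. Its 2 members became 1 without a filter, 1 at the same sum and 0 with the fold change, and 0 to 3 with libraries left out. Without hepatocyte WT 3 and whole liver Cdk1 Liv-/- 3 together, an alternative chosen after seeing the data, 452 genes and 0 members passed.

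With replicate numbers as blocks, 1456 genes and 0 members passed in hepatocytes, 0 genes in the compartment in WT, and 656 genes and 1 member in the interaction, and the Cebpb to Cebpa ratio over both compartments had an exact permutation p of 0.0625 at an unchanged log2 difference of 0.84. Whether the replicate numbers pair the libraries is not settled by their correlations, which ran from -0.32 to 0.24. In whole liver the block lowered the adjusted p of Cebpb from 0.0685 to 0.0413 and raised that of Cebpa from 0.00896 to 0.0439. The block leaves fewer degrees of freedom, and why calls were lost or gained under it was not tested.

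Directions turned with median-ratio size factors for Cebpa (-0.042) and Foxa3 (-0.047) in hepatocytes, for Nr5a2 (-0.094), Prox1 (-0.17), Hnf4aos (-0.040) and Atf5 (-0.048) in whole liver, and for Prox1 (0.0057) and Scarb1 (0.025) in the interaction. Without both libraries that stood apart they turned in the interaction for Cebpb (-0.021), Nr5a2 (-0.0049), Hnf4aos (0.10), 9030622O22Rik (-0.050), Hlf (-0.091) and Hpx (-0.032). With libraries left out the values ranged across 0 in hepatocytes for Prox1 -0.44 to 0.28, Cebpd -0.19 to 0.57, Cebpa -0.11 to 0.12, Foxa2 -0.092 to 0.44, Foxa3 -0.028 to 0.069, Hnf4aos -0.32 to 0.025, Ppara -1.19 to 0.093, Klf15 -0.023 to 0.36, Atf5 -0.33 to 0.14, Igfbp1 -0.82 to 0.36 and Crp -0.25 to 0.12, in whole liver for Prox1 -0.027 to 0.13, Hnf4aos -0.20 to 0.17 and Foxa1 -0.20 to 0.025, in the compartment in WT for Foxa3 -0.019 to 0.13 and Hnf4aos -0.12 to 0.27, and in the interaction for Prox1 -0.51 to 0.23, 9030622O22Rik -0.15 to 0.33, Cebpb -0.22 to 0.55, Nr5a2 -0.022 to 0.31, Hlf -0.11 to 0.24, Crp -0.068 to 0.30, Scarb1 -0.24 to 0.0050, Hpx -0.078 to 0.26, Hp -0.051 to 0.18 and Hnf4aos -0.36 to 0.10. The cause was not tested.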
